A study of Homo sapiens with 12 samples.

Results

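The TRIM genes are the tripartite motif family, taken here as every row of the gene count tables whose symbol is TRIM followed only by digits. The rule found 60 genes among 44700 rows, and it used no measured value. The rows include 15830 assembled loci, which were not left out of the counts over all genes. Of these 60 members, 44 had enough counts to be tested, among 15810 tested genes. A further 6 such symbols in the GENCODE 29 annotation (TRIM49, TRIM50, TRIM64, TRIM73, TRIM74 and TRIM77) were not analysed here.

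The libraries came from SK-MEL-5 and MALME-3M, established human melanoma cell lines whose genotype is given as wild type. Each line was grown untreated or with interferon-gamma (IFN-γ) for 24 h, at 150 ng/mL for SK-MEL-5 and 200 ng/mL for MALME-3M, and each of the 4 groups has 3 libraries from triplicate wells. The treatment began when the cells were seeded, and the lines were kept in different media (MEM with 10% serum for SK-MEL-5, IMDM with 20% serum for MALME-3M). Line, dose and medium cannot be told apart in any comparison between the lines. Nothing says that the wells came from separate cultures, so the p-values speak only of how these wells varied, which may be technical variation. In these bulk libraries a lower level and fewer cells expressing a gene cannot be told apart.

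Most TRIM proteins are E3 ubiquitin ligases. A RING finger recruits a ubiquitin-charged E2 enzyme, B-box zinc fingers and a coiled coil build dimers and larger assemblies, and a variable C-terminal domain chooses the target. The largest class carries a PRY-SPRY domain and includes proteins that bind viral capsids, antibodies and signalling proteins. Many of its genes are known interferon-stimulated genes. A separate class with a PHD finger and a bromodomain (TRIM24, TRIM28 and TRIM33) works in the nucleus on chromatin.

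Gene counts totalled 15514412 to 22921184 per library. Levels are given as counts per 1000000 counts (CPM) on TMM-scaled library sizes. As a check of interferon signalling, IRF1, STAT2, IRF9, SOCS1 and GBP1 were all called higher after IFN-γ in both lines. The 7 melanocyte lineage markers had counts in every group, with summed levels of 5062 to 6246 CPM, but single markers differed between the lines. In untreated SK-MEL-5 and MALME-3M, mean levels were 516 and 6.87 CPM for TYRP1 and 2471 and 972 CPM for DCT. PMEL was at 1463 and 2910 CPM and TYR at 266 and 438 CPM. MITF (600 and 589 CPM), SOX10 (270 and 276 CPM) and MLANA (470 and 449 CPM) were closer. Endothelial markers summed to 0.254 to 1.80 CPM. Leukocyte markers summed to 18.6 to 25.8 CPM in SK-MEL-5 and 111 to 216 CPM in MALME-3M, nearly all of it CD68, a lysosomal protein (group means 20.0 to 21.7 and 116 to 213 CPM), while PTPRC, which encodes CD45, had 0 counts in MALME-3M. Epithelial markers summed to 0.391 to 9.52 CPM in SK-MEL-5 and 297 to 381 CPM in MALME-3M, nearly all of it CDH1, which encodes E-cadherin (325 to 380.4 CPM in MALME-3M). KRT14 had 0 counts in SK-MEL-5, and EPCAM and KRT5 had 0 in treated MALME-3M. Fibroblast markers summed to 130 to 189 CPM in SK-MEL-5 and 15.3 to 19.5 CPM in MALME-3M, mostly LUM, the matrix protein lumican (125 to 161 and 8.54 to 13.1 CPM), with COL1A2 at 0 counts in untreated SK-MEL-5. Their part in the differences between the lines was not tested.

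Summed over all 60 members, TRIM transcripts made up 1969 to 2065 CPM in untreated SK-MEL-5 and 2443 to 2444 CPM after IFN-γ. In MALME-3M the sum was 1797 to 1836 CPM untreated and 2038 to 2092 CPM treated. In each line the treated libraries lay above all untreated ones. Per kilobase of merged exons, TRIM28, the corepressor that KRAB zinc finger proteins recruit to DNA, had the highest untreated level in both lines, with 60.1 ± 2.72 CPM per kb (SD, n = 3) in SK-MEL-5 and 40.9 ± 1.81 in MALME-3M. TRIM63, a ligase best known from muscle protein breakdown, came next, with 51.3 ± 6.06 CPM per kb in SK-MEL-5 and 20.7 ± 1.48 in MALME-3M. TRIM2, a ligase described in neurons, and TRIM37, a ligase of centrosomes and chromatin, were also among the 5 highest untreated members of each line. After IFN-γ the order changed at the top. TRIM21 went from rank 7 to rank 1 in SK-MEL-5, from 13.4 ± 3.44 to 62.7 ± 3.08 CPM per kb, and from rank 15 to rank 2 in MALME-3M, from 6.83 ± 1.05 to 24.4 ± 1.75. TRIM22 climbed from rank 36 to rank 8 in SK-MEL-5 and from rank 28 to rank 6 in MALME-3M.

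**Figure D1:**
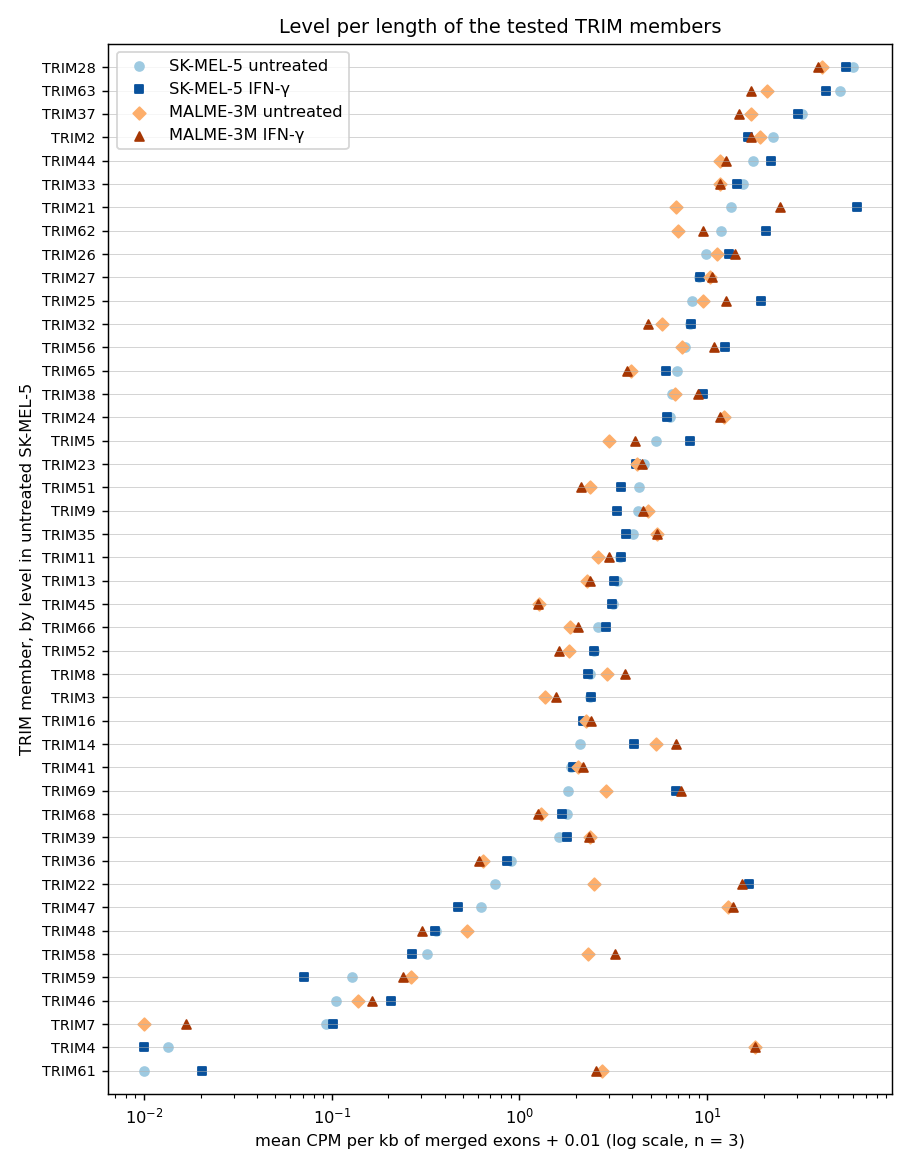
Mean level of the 44 tested TRIM members in CPM per kilobase of merged exons plus 0.01 (horizontal log axis, n = 3 libraries per symbol), in the order of untreated SK-MEL-5. TRIM28 and TRIM63 stand at the top, and treated SK-MEL-5 passes them only at TRIM21 (62.7 CPM per kb). TRIM4, TRIM61 and TRIM47 show the widest gaps between the lines.

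Treatment raised the same small set of members in both lines. In SK-MEL-5, edgeR's quasi-likelihood test called 11 of 44 tested members higher after IFN-γ and 2 lower (Benjamini-Hochberg adjusted p below 0.05 over all tested genes), where 5.98% of all tested genes were called higher and 7.05% lower. In MALME-3M, 11 were called higher and 3 lower, against 9.51% and 8.77% of all genes. The lists of higher members shared 10, which is 90.9% of each: TRIM5, TRIM14, TRIM21, TRIM22, TRIM25, TRIM26, TRIM38, TRIM56, TRIM62 and TRIM69. TRIM44 was called only in the SK-MEL-5 comparison and TRIM8 only in the MALME-3M comparison, and for neither did the difference between the lines pass the test (adjusted p = 0.397 and 0.171). By edgeR 0 members were called lower in both lines, against 2 at an unadjusted p below 0.05 and 2 by DESeq2 (TRIM2 and TRIM63 each time). The median log2 change of the tested members was -0.01 in SK-MEL-5 and 0.07 in MALME-3M, beside -0.03 and 0.00 for all tested genes.

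Treated and untreated libraries did not overlap in 19 of 44 members in SK-MEL-5, where 29.1% of all genes did not overlap, and in 15 of 44 in MALME-3M, where 33.1% did not. At 1.5-fold or more, 8 members were called in SK-MEL-5 (TRIM5, TRIM14, TRIM21, TRIM22, TRIM25, TRIM56, TRIM62 and TRIM69), against 3.93% of all genes. In MALME-3M, 3 were (TRIM21, TRIM22 and TRIM69), against 5.62%. The 10 members raised in both lines together went from 385 to 404 CPM to 880.0 to 896 CPM in SK-MEL-5, and from 398 to 415 CPM to 671 to 712 CPM in MALME-3M.

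**Figure D2:**
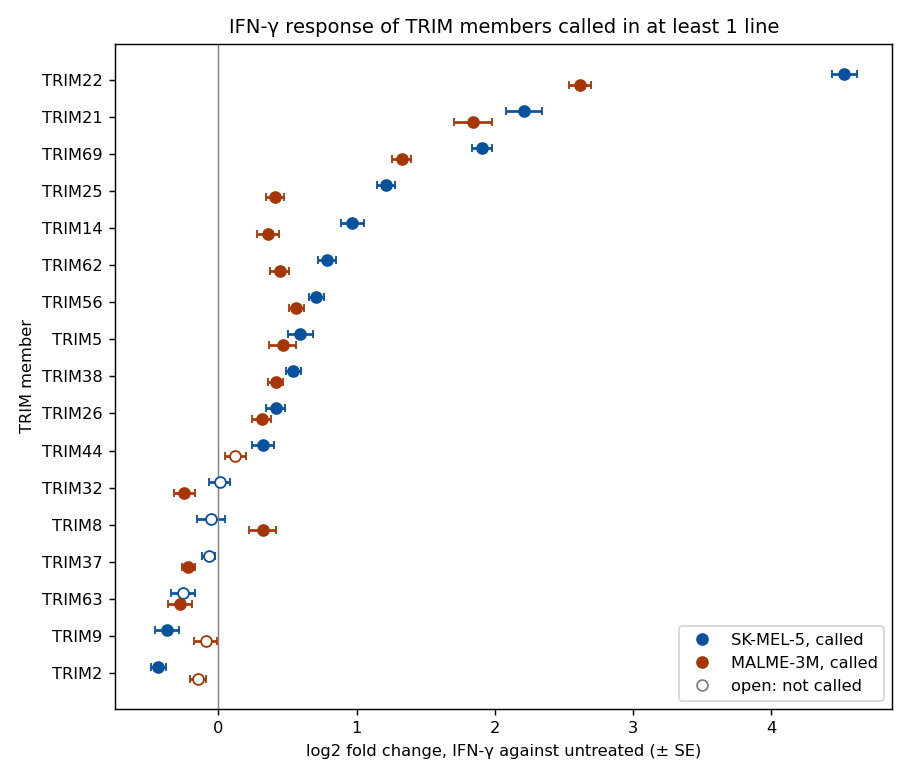
Log2 fold change with IFN-γ (horizontal axis, ± SE from edgeR's model on 3 libraries per group) of the 17 TRIM members called in at least 1 line, SK-MEL-5 in blue and MALME-3M in orange-brown, filled where called. TRIM22 reaches 4.53 in SK-MEL-5 and 2.62 in MALME-3M, the 10 members from TRIM22 to TRIM26 are filled in both lines, and the falls at the bottom are all under 0.5.

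The promoters of the raised members are shown because these genes moved together and because interferon signals reach DNA through known short elements. The interferon-stimulated response element, bound by IRF proteins, has at its core the unit GAAA, any 2 bases, and GAAA again, called the double GAAA here, and the gamma-activated site reads TTCNNNGAA. Both were searched on both strands in RefSeq windows (GRCh38.p14) of 250 bases before and 50 bases after each annotated start. In capitals are the matches to the double GAAA, which read TTTC, 2 bases and TTTC where the match is on the other strand. Each sequence runs 5′ to 3′ on the strand of its gene, with positions counted from the start, and is cut to 30 bases where the annotation has an exon.
TRIM14, chr9:98119223-98119302, minus strand, -80 to -1: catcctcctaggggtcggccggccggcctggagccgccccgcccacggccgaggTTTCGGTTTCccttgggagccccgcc
TRIM21, chr11:4393663-4393692, minus strand, 11 to 40: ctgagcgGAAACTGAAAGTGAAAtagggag
TRIM26, chr6:30213551-30213630, minus strand, -224 to -145: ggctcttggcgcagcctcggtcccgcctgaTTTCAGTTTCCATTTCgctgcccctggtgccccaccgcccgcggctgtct
TRIM5, chr11:5685082-5685111, minus strand, -37 to -8: atagtttatcTTTCACTTTCctgccctgag
TRIM69, chr15:44736456-44736485, plus strand, -72 to -43: ctaatgagggTTTCTCTTTCtcttaagcaa
TRIM44, chr11:35662695-35662774, plus strand, -80 to -1: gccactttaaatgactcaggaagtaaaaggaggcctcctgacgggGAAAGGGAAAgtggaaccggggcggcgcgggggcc

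In the TRIM21 and TRIM26 stretches 2 matches overlap, so that GAAA, or TTTC on the other strand, appears 3 times in a row at a spacing of 2 bases. The table held windows for 46 members, TRIM22 and TRIM8 not among them. Of the members raised in both lines, 5 of 9 with a window had a double GAAA (TRIM5, TRIM14, TRIM21, TRIM26 and TRIM69), and with TRIM44 it was 6 of 10 raised in either line. Tested members that were not raised had one in 2 of 24 (TRIM2 and TRIM16), and untested members in 1 of 12 (TRIM34). Of all 35116 windows, 3.57% held a match, and so did 4.38% of the 27305 genes with a window. TTCNNNGAA was found in 0 of the 10 raised members with a window and in 5 of 24 tested members that were not raised. It was in 7.66% of all windows and in 9.38% of the genes with a window. These are counts of letters in short windows, and no test was made of them.

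Members were grouped into clusters where the gap to the next one was at most 1 megabase. A loose cluster on chromosome 11 (GRCh38, chr11:4384897-6474459) holds TRIM21, TRIM68, TRIM6, TRIM34, TRIM5, TRIM22 and TRIM3. Its widest gap runs from the end of TRIM68 (4608259) to the start of TRIM6 (5596109). That gap is just inside the limit, so a slightly stricter one would set TRIM21 and TRIM68 apart from the rest. Of its 5 tested members 3 rose in both lines, where 5.98% of all tested genes rose in SK-MEL-5 and 9.51% in MALME-3M. In a cluster on chromosome 6, 1 of 2 tested members rose in each line (TRIM26). Clusters on chromosomes 1, 4, 5 and 17 and another on chromosome 11 had 0 raised members. TRIM22 (chr11:5689689-5737089, plus strand), a nuclear and cytoplasmic ligase that restricts retroviral transcription, had the largest change. It was at 4.76, 4.05 and 4.35 CPM in untreated SK-MEL-5 and 102, 96.8 and 103 CPM after IFN-γ. Untreated MALME-3M had 13.2, 14.6 and 17.3 CPM and treated MALME-3M 94.7, 94.0 and 89.1. The untreated lines were thus apart and the treated libraries came to nearly the same level. The log2 change was 4.53 ± 0.09 (SE) in SK-MEL-5, a 23.1-fold rise (adjusted p = 1.26e-17), and 2.62 ± 0.08 in MALME-3M, a 6.15-fold rise (adjusted p = 5.76e-15).

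TRIM21 (chr11:4384897-4393696, minus strand), a cytosolic antibody receptor that sends antibody-coated viruses to the proteasome, was at 18.5, 31.4 and 27.8 CPM in untreated and 123, 126 and 114 CPM in treated SK-MEL-5. In MALME-3M it was at 15.5, 11.7 and 12.3 CPM untreated and 44.5, 45.7 and 50.9 CPM treated. No treated library overlapped an untreated one of its line, and SK-MEL-5 was the higher line in both states. The rise was 4.63-fold in SK-MEL-5 (log2 2.21 ± 0.13, adjusted p = 1.77e-10) and 3.58-fold in MALME-3M (log2 1.84 ± 0.14, adjusted p = 8.15e-09). The difference between these changes did not pass the test (log2 -0.37 ± 0.19, adjusted p = 0.335).

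TRIM5 (chr11:5663557-5938619, minus strand), which recognises retroviral capsids, read 24.9, 26.5 and 25.4 CPM in untreated and 35.8, 41.2 and 39.0 CPM in treated SK-MEL-5. The MALME-3M libraries gave 15.9, 14.3 and 12.9 CPM untreated and 19.2, 18.4 and 21.8 CPM treated. Every treated library was above the untreated ones of its line, and treated MALME-3M stayed below untreated SK-MEL-5. The log2 change was 0.59 ± 0.09 in SK-MEL-5 and 0.47 ± 0.10 in MALME-3M (adjusted p = 0.000138 and 0.00198). Of the other tested members of the cluster, TRIM3, an NHL-repeat ligase, and TRIM68 were called in neither line, with log2 changes of 0.02 ± 0.10 and -0.09 ± 0.16 in SK-MEL-5.

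TRIM25 (chr17:56836387-56914080, minus strand) attaches ubiquitin chains to the viral RNA sensor RIG-I and also ISG15 to other proteins. It measured 77.2, 76.2 and 84.0 CPM in untreated SK-MEL-5 and 183, 189.7 and 177 CPM after IFN-γ, against 94.0, 90.6 and 85.5 and 111, 115 and 132 CPM in MALME-3M. The untreated lines were close, and the treated SK-MEL-5 libraries were the highest of all 12. The rise was 2.31-fold in SK-MEL-5 (log2 1.21 ± 0.06, adjusted p = 4.86e-11) and 1.33-fold in MALME-3M (log2 0.41 ± 0.06, adjusted p = 0.000139).

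TRIM14 (chr9:98069275-98119212, minus strand) lacks a RING finger and serves as an adaptor at MAVS, the mitochondrial protein downstream of RIG-I. SK-MEL-5 had 11.4, 12.1 and 10.7 CPM untreated and 22.7, 23.1 and 21.1 CPM treated, and MALME-3M had 29.2, 29.9 and 28.1 and 38.8, 35.6 and 37.6 CPM. Here MALME-3M was the higher line, and its untreated libraries lay above the treated ones of SK-MEL-5. The log2 change was 0.97 ± 0.08 in SK-MEL-5 and 0.36 ± 0.08 in MALME-3M (adjusted p = 6.08e-08 and 0.00243).

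TRIM56 (chr7:101085439-101097967, plus strand), an antiviral ligase linked to STING and TLR3 signalling, had nearly equal untreated values in the lines. Untreated libraries gave 86.1, 83.1 and 85.8 CPM in SK-MEL-5 and 81.2, 84.9 and 81.1 CPM in MALME-3M, and treated ones 142, 134 and 141 and 119, 115 and 130.4 CPM. All treated libraries lay above all untreated ones, and the treated SK-MEL-5 libraries lay above the treated MALME-3M ones. Its log2 change was 0.71 ± 0.05 and 0.56 ± 0.05 (adjusted p = 1.31e-08 and 3.78e-07).

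TRIM69 (chr15:44728988-44767829, plus strand), a RING ligase known as an interferon-stimulated gene, had the largest change in SK-MEL-5 after TRIM22 and TRIM21. Its levels were 16.4, 18.6 and 15.3 CPM untreated and 61.1, 63.6 and 64.9 CPM treated in SK-MEL-5, and 27.2, 27.8 and 25.5 and 68.6, 66.0 and 67.5 CPM in MALME-3M. The untreated lines were apart and the treated libraries close together, as for TRIM22. The rise was 3.76-fold in SK-MEL-5 (log2 1.91 ± 0.07, adjusted p = 1.76e-13) and 2.51-fold in MALME-3M (log2 1.33 ± 0.07, adjusted p = 3.08e-11). In the estimated transcript counts, 79.9% of the TRIM69 total over all libraries was on the transcript TRIM69-207 and 19.2% on TRIM69-212, both annotated as processed transcripts without a coding sequence. Those counts were 41.4% of the gene counts, so they hold part of its reads.

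TRIM62 (chr1:33145402-33182059, minus strand), a ligase described as a regulator of epithelial polarity, stood at 42.1, 45.5 and 42.7 CPM in untreated and 80.9, 74.0 and 69.8 CPM in treated SK-MEL-5. MALME-3M had 26.2, 25.6 and 24.6 CPM untreated and 34.7, 35.7 and 33.5 CPM treated, all below untreated SK-MEL-5. The log2 change was 0.79 ± 0.06 and 0.44 ± 0.07 (adjusted p = 3.17e-08 and 9.83e-05). TRIM38, which restrains inflammatory signalling through TAB2 and TAB3, rose by a log2 change of 0.54 ± 0.05 in SK-MEL-5 and 0.41 ± 0.05 in MALME-3M. TRIM26, a ligase of the MHC region reported to act on nuclear IRF3, rose by 0.41 ± 0.07 and 0.31 ± 0.07. For both genes every treated library was above every untreated library of its line.

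The members called in 1 line had small changes. TRIM44, a RING-less member with a zinc finger of the ubiquitin-protease type, rose in SK-MEL-5 (log2 0.32 ± 0.08, adjusted p = 0.00884), from 195, 230.4 and 260.2 CPM to 275, 285 and 297 CPM. Its lowest treated library stood just above the highest untreated one, and the call was lost without treated SK-MEL-5 library 3 (adjusted p = 0.0551). TRIM8, which acts on NF-kappa-B signalling, rose in MALME-3M (log2 0.32 ± 0.10, adjusted p = 0.0292), from 30.6, 25.5 and 27.4 to 33.8, 32.2 and 38.3 CPM. The TRIM8 call was lost when any 1 of 4 MALME-3M libraries was left out, untreated 2 or 3 or treated 1 or 3 (adjusted p = 0.129, 0.0772, 0.0529 and 0.207).

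**Figure D3:**
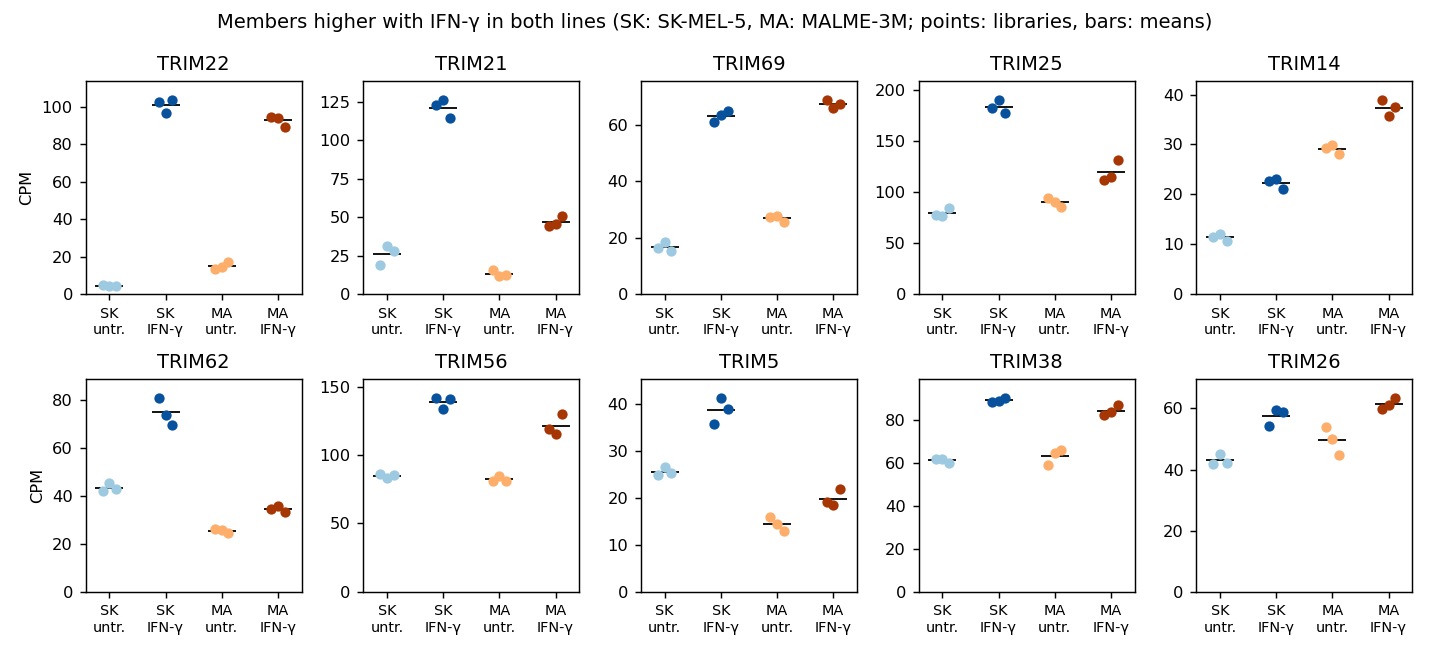
Level in CPM (vertical axes from 0) of the 10 members called higher in both lines, 1 panel per gene, each point 1 library and each bar the mean of 3 libraries. In each panel the treated points lie above the untreated points of the same line, TRIM22 and TRIM69 start apart and end close together, and TRIM25 ends higher in SK-MEL-5.

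Falls were fewer and smaller. TRIM2 fell in SK-MEL-5 from 220.4, 203 and 209.6 CPM to 149, 155 and 164 CPM (log2 -0.43 ± 0.06, adjusted p = 1.71e-05), with no overlap. In MALME-3M it was at 179.5, 170.0 and 189 CPM untreated and 170.0, 162 and 155 CPM treated, where the highest treated library just overlapped the lowest untreated one, and the change was not called (log2 -0.15 ± 0.06, adjusted p = 0.0791). Scaling by DESeq2's size factors brought it just past the threshold (log2 -0.17, adjusted p = 0.0458). Upper-quartile scaling (adjusted p = 0.0373), DESeq2's own test (adjusted p = 0.0222) and leaving out treated MALME-3M library 1 (adjusted p = 0.0414) also called the fall. The other alternatives did not. TRIM9, a brain-enriched ligase of synaptic vesicle release, fell in SK-MEL-5 from 37.2, 37.4 and 39.7 CPM to 26.3, 32.8 and 29.5 CPM (log2 -0.37 ± 0.09, adjusted p = 0.00715). Without treated SK-MEL-5 library 1 the TRIM9 call was lost (adjusted p = 0.0504).

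In MALME-3M, TRIM37 fell from 96.3, 96.0 and 90.6 CPM to 80.7, 82.9 and 79.7 CPM (log2 -0.22 ± 0.05, adjusted p = 0.00372). TRIM32, an NHL-repeat ligase mutated in a limb-girdle muscular dystrophy, fell from 22.6, 20.4 and 22.1 CPM to 18.5, 18.3 and 18.1 CPM (log2 -0.25 ± 0.08, adjusted p = 0.0325). TRIM63 fell from 57.5, 52.4 and 50.1 CPM to 45.2, 48.9 and 38.0 CPM (log2 -0.28 ± 0.09, adjusted p = 0.0375). None of the 3 overlapped between treated and untreated libraries. TRIM32 was no longer called without untreated MALME-3M library 1 or 3 or treated library 2 or 3 (adjusted p = 0.0998, 0.077, 0.0784 and 0.0614), nor TRIM63 without untreated library 1 or 2 or treated library 3 (adjusted p = 0.167, 0.0749 and 0.138). In SK-MEL-5, TRIM63 was at 118, 149 and 129 CPM untreated and 115, 111 and 106 CPM treated, a log2 change of -0.26 ± 0.09 that missed the threshold (adjusted p = 0.0543).

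The response itself was compared between the lines, with the doses differing. The difference of the log2 changes, MALME-3M minus SK-MEL-5, was called for 6 of 44 members, against 4.46% of all tested genes (2.67% higher and 1.79% lower). The rise was smaller in MALME-3M for TRIM22 (log2 difference -1.91 ± 0.12, adjusted p = 8.23e-09), TRIM25 (-0.80 ± 0.09, adjusted p = 1.62e-05), TRIM14 (-0.61 ± 0.11, adjusted p = 0.00273), TRIM69 (-0.58 ± 0.10, adjusted p = 0.00115) and TRIM62 (-0.34 ± 0.09, adjusted p = 0.0410). For TRIM2 the fall was smaller in MALME-3M (0.29 ± 0.08, adjusted p = 0.0448). Among the 5 with a smaller rise, TRIM22, TRIM14, TRIM69 and, by a weak call, TRIM25 were higher in untreated MALME-3M, and TRIM62 was lower there. All 10 members raised in both lines had the larger log2 change in SK-MEL-5, but for TRIM5, TRIM21, TRIM26, TRIM38 and TRIM56 that difference was not called. The calls of TRIM2 and TRIM62 were weak: leaving out 1 library at a time, TRIM2 held in 2 of 12 fits and TRIM62 in 4 of 12, with adjusted p up to 0.197 and 0.119.

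The 3 chromatin members were not called in either line. TRIM28 was at 255, 236 and 236 CPM in untreated and 227, 219 and 221 CPM in treated SK-MEL-5, a log2 change of -0.12 ± 0.05 with a 95% interval of -0.24 to -0.01. In MALME-3M it was at 166, 171 and 157 and 150.4, 155 and 166 CPM, a log2 change with an interval of -0.19 to 0.05. The SK-MEL-5 libraries did not overlap and the MALME-3M ones did. TRIM24, a nuclear receptor cofactor that reads histone H3, gave 57.7, 57.6 and 59.5 and 56.9, 58.1 and 54.3 CPM in SK-MEL-5 (interval of the log2 change -0.17 to 0.08) and 112, 115 and 116 and 112, 108 and 102 CPM in MALME-3M (-0.20 to 0.03). TRIM33, which acts with SMAD4 and reads histone H3, gave 144, 151 and 153 and 143, 137 and 132 CPM in SK-MEL-5 (-0.25 to 0.01) and 109, 109 and 120.0 and 108, 109 and 118 CPM in MALME-3M (-0.14 to 0.12). At an unadjusted p below 0.05, TRIM28 and TRIM33 were lower in SK-MEL-5, and DESeq2 called none of the 3 in either line. In the estimated transcript counts TRIM33 was called lower in MALME-3M (log2 -0.43, adjusted p = 0.0377).

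Between the untreated lines most members differed, as most genes did. MALME-3M was called higher than SK-MEL-5 in 15 of 44 members and lower in 21, against 34.5% and 37.2% of all tested genes (71.7% together). At 1.5-fold or more, 20 members were called, against 48.2% of all genes. Libraries of the untreated lines did not overlap in 35 of 44 members, against 73.8% of all genes. A share near the background is no result about the family, and the values of single members follow. TRIM24 was higher in MALME-3M (log2 0.97 ± 0.05), while TRIM28 (-0.55 ± 0.05) and TRIM33 (-0.41 ± 0.06) were lower, each with adjusted p of 2.90e-06 or less and with no overlap.

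TRIM4 (chr7:99876958-99919600, minus strand), a ligase reported to act on RIG-I, was close to absent from SK-MEL-5. It had 1 count over the 3 untreated SK-MEL-5 libraries and 0 over the treated ones, against 4594 counts in untreated MALME-3M, a ratio of 5074 with a 95% Clopper-Pearson interval of 910 to 200000. In CPM, MALME-3M stood at 80.1, 92.4 and 89.7 untreated and 90.8, 90.8 and 80.7 treated, and its change with IFN-γ was not called (log2 interval -0.18 to 0.18). The transcript tables gave the same picture, with estimated counts of 0 in all 6 SK-MEL-5 libraries and 436 to 652 in MALME-3M. The 8 nearest protein-coding genes, 4 on each side, were looked up after the TRIM4 values were seen. On the side of lower coordinates, CYP3A7-CYP3A51P, CYP3A4 and OR2AE1 had 0 counts in all groups and CYP3A43 had 6 or fewer per group. On the other side, GJC3 had 5 counts in untreated SK-MEL-5 and 24 in untreated MALME-3M, and AZGP1 had 0.669 and 4.26 CPM (log2 2.70 ± 0.46, adjusted p = 3.55e-05). Farther out, ZKSCAN1, a zinc finger gene, had 262 and 690.5 CPM (log2 1.40 ± 0.05, adjusted p = 1.60e-14), and ZSCAN21 had 20.4 and 22.4 CPM and was not called.

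Further members were close to absent from 1 line (TRIM61 and TRIM7) or expressed in both and much lower in 1 (TRIM47 and TRIM58). TRIM61 (chr4:164954446-164977668, minus strand), about which little is known, had 0 counts in untreated SK-MEL-5 and 227 in untreated MALME-3M (6.13, 3.13 and 3.80 CPM), at least 83.6-fold higher against a floor of 3 counts over the group. The transcript tables differ from this, with 0 estimated counts for TRIM61 in all 12 libraries beside 476 gene counts. TRIM7, a ligase first found as a partner of glycogenin, had 37 counts in untreated SK-MEL-5 (0.318, 0.712 and 0.810 CPM) and 0 in untreated MALME-3M, at least 11.2-fold lower in MALME-3M. TRIM47 (chr17:75874161-75878575, minus strand), a RING ligase with a PRY-SPRY domain, had 2.35, 2.18 and 1.27 CPM in untreated SK-MEL-5 and 43.7, 34.9 and 43.1 CPM in MALME-3M (log2 4.40 ± 0.16, adjusted p = 7.30e-15). An opposite-strand gene, AC087289.5, overlaps 51.5% of the TRIM47 exons, and 33.2% of those of TRIM61 are overlapped by AC106872.5. The strand setting of the counting is not given, so reads of AC087289.5 cannot be told apart from those of TRIM47. AC106872.5 lies on the same strand as TRIM61, where no strand setting would tell the reads of the shared stretch apart. TRIM58, a ligase of late erythroblasts, had 0.635, 1.33 and 1.06 CPM in untreated SK-MEL-5 and 7.87, 6.86 and 7.64 CPM in MALME-3M (log2 2.83 ± 0.21, adjusted p = 5.34e-10).

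**Figure D4:**
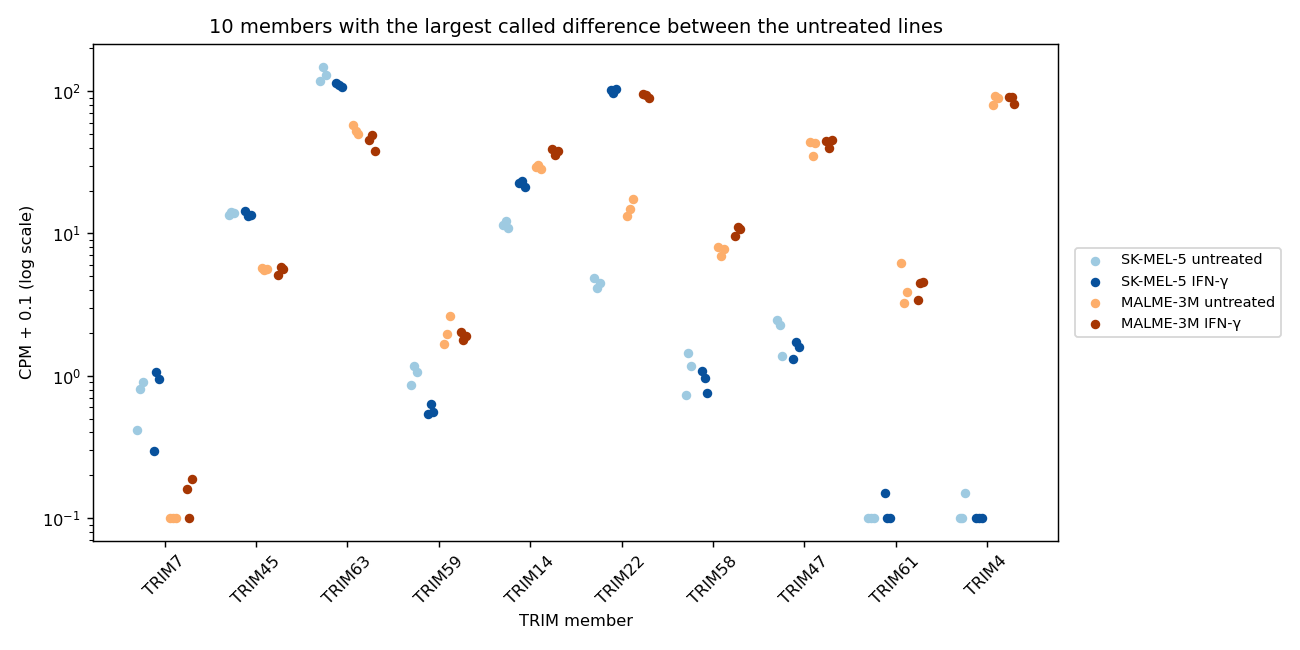
Level in CPM plus 0.1 (vertical log axis) in all 12 libraries of the 10 members with the largest called difference between the untreated lines, in 4 colours by line and treatment. TRIM4 and TRIM61 lie at the bottom in SK-MEL-5 and between 3.13 and 92.4 CPM in MALME-3M, TRIM7 is the reverse at a low level, and of these 10 TRIM14 and TRIM22 were called higher with treatment in both lines.

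Among other members expressed in both lines, TRIM45, a ligase with a filamin repeat, was lower in MALME-3M (log2 -1.32 ± 0.11). It was at 13.5, 14.0 and 13.8 CPM in untreated SK-MEL-5 and 5.59, 5.42 and 5.56 CPM in untreated MALME-3M. IFN-γ left it at 14.2, 13.1 and 13.3 and 4.98, 5.75 and 5.51 CPM. TRIM63 was also lower there (log2 -1.31 ± 0.09, adjusted p = 1.09e-10). TRIM59, a membrane-anchored ligase, was scarce in both lines and higher in MALME-3M, at 0.762, 1.07 and 0.962 and 1.56, 1.87 and 2.55 CPM (log2 1.08 ± 0.29, adjusted p = 0.00288). SMC4 on the opposite strand and AC079594.2 on the same strand overlap 34.3% of the TRIM59 exons. Of the interferon-raised members, TRIM22 (log2 1.79 ± 0.10), TRIM14 (1.35 ± 0.08), TRIM69 (0.67 ± 0.07), TRIM26 (0.20 ± 0.07) and TRIM25 (0.19 ± 0.06) were higher in untreated MALME-3M, and TRIM21 (-0.99 ± 0.14), TRIM5 (-0.84 ± 0.10) and TRIM62 (-0.77 ± 0.07) lower. TRIM38 and TRIM56 were not called, with log2 intervals of -0.07 to 0.17 and -0.17 to 0.08. The TRIM25 call was lost without untreated SK-MEL-5 library 1 or 2 or untreated MALME-3M library 1 (adjusted p = 0.0584, 0.0738 and 0.0765). The TRIM26 call was lost without library 1 of either untreated line (adjusted p = 0.0531 for SK-MEL-5 and 0.0877 for MALME-3M).

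By domain class, the interferon-raised members were mostly of the PRY-SPRY class, in which 8 of 21 tested genes rose in each line (TRIM5, TRIM21, TRIM22, TRIM25, TRIM26, TRIM38, TRIM62 and TRIM69). Over all tested genes 5.98% rose and 7.05% fell in SK-MEL-5, and 9.51% rose and 8.77% fell in MALME-3M, which is the background for each class count here. By edgeR 0 of the 21 fell in either line, and 0 were lower at an unadjusted p below 0.05 or by DESeq2. The median log2 change of that class was still 0.03 in SK-MEL-5 and 0.20 in MALME-3M. Its tested members that were not called include TRIM27, a ligase of endosomal sorting, with log2 changes of 0.02 ± 0.05 and 0.03 ± 0.05, and TRIM11, with 0.02 ± 0.09 and 0.20 ± 0.09. In the class with no further domain after the coiled coil, which here includes PML, 2 of 5 tested genes rose in SK-MEL-5 and 3 of 5 in MALME-3M. Among 4 tested genes without a RING finger, 2 rose in SK-MEL-5 and 1 in MALME-3M. Of 3 tested genes with NHL repeats, 1 fell in each line, TRIM2 in SK-MEL-5 and TRIM32 in MALME-3M. TRIM23, whose C-terminal domain is an ARF-type GTPase, was called in neither line (-0.14 ± 0.09 and 0.09 ± 0.09).

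Of genes outside the rule that belong with the family, PML, which builds the nuclear bodies that carry its name, rose from 23.1, 33.1 and 30.4 CPM to 75.1, 77.6 and 76.6 CPM in SK-MEL-5 and from 40.6, 43.1 and 40.7 to 95.2, 91.6 and 94.0 CPM in MALME-3M (log2 1.40 ± 0.09 and 1.17 ± 0.08). MID2, a microtubule-binding ligase, had 0 counts in untreated SK-MEL-5 and 1319 in untreated MALME-3M, at least 486-fold higher, and rose with IFN-γ in MALME-3M from 25.8, 25.2 and 24.5 to 34.7, 35.8 and 37.3 CPM (log2 0.52 ± 0.11, adjusted p = 0.00286). TRIM16L, a partial copy of TRIM16, fell in both lines (log2 -0.77 ± 0.14 and -0.51 ± 0.14). TRIM16 itself was called in neither (-0.04 ± 0.13 and 0.09 ± 0.12). The pair share sequence, and reads that fit both may be missing from both counts.

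The pathway around TRIM25 and TRIM14 was followed in 19 genes of RIG-I and MAVS signalling. In SK-MEL-5, 6 rose and 2 fell, where 5.98% and 7.05% of all tested genes did. In MALME-3M, where 9.51% of all genes rose and 8.77% fell, 8 rose and edgeR called 0 lower, against 2 at an unadjusted p below 0.05 and 2 by DESeq2 (MAVS and TRAF3). DDX58, which encodes RIG-I, went from 4.52 ± 0.364 to 26.2 ± 3.21 CPM (SD, n = 3) in SK-MEL-5 and from 7.98 ± 1.44 to 10.8 ± 0.947 CPM in MALME-3M. Its log2 change was 2.53 ± 0.14 in SK-MEL-5 and 0.44 ± 0.14 in MALME-3M, and the difference was called (-2.09 ± 0.20, adjusted p = 1.91e-06). The related sensors IFIH1 (MDA5) and DHX58 (LGP2) rose in both lines and less in MALME-3M (-0.79 ± 0.18 and -0.99 ± 0.20). ZC3HAV1, an RNA-binding antiviral protein that works with TRIM25, also rose less there (log2 0.60 ± 0.05 against 0.19 ± 0.05, difference -0.41 ± 0.06). MAVS itself was not called by edgeR in either line (-0.02 ± 0.05 and -0.13 ± 0.05), and the signalling scaffold TRAF3 fell in SK-MEL-5 (-0.29 ± 0.06).

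Of 19 enzymes of ubiquitin and ISG15 transfer, 4 rose in SK-MEL-5 (5.98% of all tested genes) and 6 rose in MALME-3M (9.51%), where 1 fell, UBE2K (8.77%). In SK-MEL-5 edgeR called 0 lower, against 2 at an unadjusted p below 0.05 (UBE2N and UBE2V2) and 1 by DESeq2 (UBE2N). The 4 that rose in both lines belong to the ISG15 route, on which TRIM25 acts as a ligase: the modifier ISG15 (log2 3.69 ± 0.28 and 2.83 ± 0.25), its E1 enzyme UBA7 (4.14 ± 0.14 and 2.19 ± 0.10), its E2 enzyme UBE2L6 (3.76 ± 0.08 and 2.76 ± 0.07) and its protease USP18 (2.06 ± 0.10 and 0.44 ± 0.10). HERC5, the main ISG15 ligase, was called in neither line (log2 0.39 ± 0.16 and -0.21 ± 0.16, adjusted p = 0.118 and 0.420). For UBA7, UBE2L6 and USP18 the rise was smaller in MALME-3M (difference -1.94 ± 0.18, -0.99 ± 0.11 and -1.62 ± 0.14). The E2 enzymes of the UBE2D group, which many RING ligases use, were not called, with log2 changes between -0.08 and 0.14. The E2 enzyme UBE2E2 was at 101 ± 12.4 CPM in untreated SK-MEL-5 and 2.43 ± 0.571 CPM in untreated MALME-3M (log2 -5.36 ± 0.14, adjusted p = 5.55e-17). Of 7 cofactors of TRIM21 and TRIM5, 1 fell in SK-MEL-5, the segregase VCP (log2 -0.18 ± 0.05), where 7.05% of all tested genes fell. By edgeR 0 rose in either line, and at an unadjusted p below 0.05 it was 0 in SK-MEL-5 and 2 in MALME-3M (SQSTM1 and UBE2W), with 0 by DESeq2.

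Of 13 partners of TRIM28, 2 rose and 1 fell in SK-MEL-5 (5.98% and 7.05% of all tested genes), and 2 rose and 5 fell in MALME-3M (9.51% and 8.77%). HDAC1, a histone deacetylase, rose in both lines (0.40 ± 0.06 and 0.19 ± 0.06), as did MORC3, an ATPase of nuclear bodies (0.44 ± 0.06 and 0.63 ± 0.06). CBX5, the heterochromatin protein HP1-alpha, fell in both (-0.23 ± 0.04 and -0.23 ± 0.04). Between the untreated lines 10 of the 13 were lower in MALME-3M, where 37.2% of all tested genes were lower and 71.7% differed. MAGEC2, a germline gene product that binds TRIM28 and raises its ligase activity, was at 62.8 ± 3.18 CPM in SK-MEL-5 and 5.09 ± 0.610 CPM in MALME-3M (log2 -3.63 ± 0.09). MAGEA3 and MAGEA6 were lower as well (-2.50 ± 0.07 and -1.45 ± 0.07), and since they are nearly identical copies their split of reads is uncertain.

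The 16 untested members had at most 19 counts in a library, and TRIM42 and TRIM60 had 0 counts in all 12. TRIM17, for which a pro-apoptotic role in neurons is described, had 0 counts in all SK-MEL-5 libraries. In MALME-3M it had 0.0520 to 0.180 CPM untreated and 0.327 to 0.851 CPM treated, and this change was not tested. TRIM67, a neuronal relative of TRIM9, had 3 counts in untreated SK-MEL-5 and 25 in untreated MALME-3M, a ratio of 9.20 with an interval of 2.81 to 47.6. In the treated groups TRIM67 had 3 counts in SK-MEL-5 and 6 in MALME-3M. Its estimated transcript counts were 0 in untreated MALME-3M and 2 over all libraries, beside 37 gene counts. For TRIM6 and TRIM34 the tables differ. The read-through gene TRIM6-TRIM34 overlaps 29.3% of the TRIM6 exons and 83.0% of the TRIM34 exons, and the gene tables gave 7 and 6 counts over all libraries. The transcript tables gave 798 and 913 estimated counts. By these, TRIM6, a ligase that makes free ubiquitin chains in interferon signalling, had 65.8, 149.2 and 121.7 estimated counts in untreated SK-MEL-5 and 11.5, 16.6 and 22.7 in untreated MALME-3M (log2 -2.55 ± 0.26, adjusted p = 6.27e-06). The IFN-γ changes of TRIM6 and TRIM34 were not called in those counts.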

How the data were processed

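The authors deposited, for each of 12 libraries, unnormalized whole-number read counts per gene, in HTSeq's layout per the file headers. The estimated counts and TPM per transcript were deposited in kallisto's layout, per the file headers. The build was hg38, and HTSeq, kallisto, STAR, cutadapt and SAMtools were the tools, per the submitters' processing notes. The annotation, and the strand setting of the counting, were not given in the sources used here.

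The test of gene counts was edgeR 4.0.16 in R 4.3.3. The filter filterByExpr (minimum count 10) kept 15810 genes, TMM scaled the libraries, and the quasi-likelihood model gave each of the 4 groups its own mean, over all 12 libraries. Benjamini-Hochberg adjustment ran over all tested genes and calls were made below 0.05. The code was tested on simulated data. Standard errors are the log2 change divided by the square root of the F statistic. Treated libraries were compared with untreated ones within a line, the 2 changes with each other, and the untreated lines with each other. The design is 3 libraries per group with no pairing.

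Libraries of a group varied beyond sampling noise (chi-square per gene 6.35 to 19.3 between pairs), so each counted as 1 sample. Intervals from counts and the floor of 3 counts over a group (0.0517 to 0.0571 CPM in the groups where it was used) cover counting error only, since PCR duplicates are not marked. Estimated counts of annotated transcripts, summed to genes and rounded, served as an alternative. They held 49.9% to 55.2% of a library's estimated counts. Of 361686 transcripts, 200989 were assembled ones, and these were not summed to genes. A single transcript took 46.6% to 57.7% of TPM, so TPM was not tested. Positions and exon lengths are from GENCODE 29 (GRCh38), and promoter windows from RefSeq (GRCh38.p14). Alternatives were RLE and upper-quartile scaling, DESeq2 1.42.0, no filter, a robust fit, only the groups compared, the estimated counts, and each library left out.

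Values per library are given for members called at 1.5-fold or more in a line, for members called in the difference, for the 10 largest called differences between the untreated lines, and for TRIM24, TRIM25, TRIM28, TRIM33 and TRIM63. Other members are named where a count or a class needs them. The members and gene lists were chosen with earlier results of these data known.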

Additional observations from a re-analysis of the deposited data

Results flagged for a closer look

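The change with IFN-γ differed between the lines for 6 members by the test of the difference itself in edgeR's model (log2 change in MALME-3M minus that in SK-MEL-5). The difference was -1.91 for TRIM22, -0.80 for TRIM25, -0.61 for TRIM14, -0.58 for TRIM69 and -0.34 for TRIM62, each a smaller rise in MALME-3M. It was 0.29 for TRIM2, a smaller fall in MALME-3M. The lines also differed in IFN-γ dose and medium, which cannot be told apart from the line.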

How the results depend on the processing

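No paired analysis was possible because the labels give no replicate numbers. Under the other scalings, DESeq2, no filter, the robust fit, only the groups compared and each left-out library, the 10 members raised in both lines kept their calls and directions. With estimated transcript counts, which hold 8.82% of the gene counts for TRIM21, 13.3% for TRIM38 and 1.42% for TRIM44, fewer were called: 7 higher and 0 lower in SK-MEL-5, 4 higher and 1 lower (TRIM33) in MALME-3M, 0 higher and 2 lower in the difference, and 10 lower between the untreated lines. By those counts TRIM38 changed by -1.15 in SK-MEL-5 (adjusted p = 0.551), the TRIM2 difference was -0.089 (adjusted p = 0.876), and between the untreated lines TRIM21 was at 0.26 (adjusted p = 0.832) and TRIM44 at 0.54 (adjusted p = 0.165), each of opposite sign to the gene counts. The cause was not tested. The difference called 0 members higher under RLE and under upper-quartile scaling, which both lost TRIM2. Leaving out 1 library at a time gave 10 to 11 higher and 1 to 3 lower in SK-MEL-5, 10 to 12 higher and 1 to 4 lower in MALME-3M, 0 to 1 higher and 4 to 5 lower in the difference, and 12 to 16 higher and 19 to 21 lower between the untreated lines. A group then has 2 libraries, whose spread the model shares with the other groups.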
